A study of Mus musculus with 8 samples.

Results

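The D-type cyclins and the CDK inhibitors are genes that drive and hold back passage through the G1 phase of the cell cycle. Described here are the 3 D-type cyclins (Ccnd1, Ccnd2 and Ccnd3), the 3 inhibitors of the CIP/KIP family (Cdkn1a, Cdkn1b and Cdkn1c) and the 4 inhibitors of the INK4 family (Cdkn2a, Cdkn2b, Cdkn2c and Cdkn2d). They were chosen by gene symbol, as the complete families, and make up 10 of the 32728 genes in the count table. All 10 passed the filter on low counts, which kept 16719 genes.

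The RNA came from APS organoids, a mouse model of colon cancer grown as cultures of epithelial cells from C57BL/6 mice in which CRISPR had been used to knock out Apc, Trp53 (p53) and Smad4. By the labels, both lines and all groups carried these 3 changes, and no group is labelled as unedited. The lines were apsMC706, labelled female, and CTO19, labelled male. The control medium, EM, held EGF, noggin, B27 and galunisertib. Each line was grown in EM for 3 days, or for 7 days in the same medium from which EGF was left out (noEGF), which gave 4 groups of 2 libraries. Noggin blocks BMP ligands and galunisertib blocks the TGF-beta receptor, in both media. The absence of EGF and the longer culture came together and cannot be told apart, and the same holds for line and labelled sex. The labels do not say whether the 2 replicas of a group were separate cultures, so the p-values measure only the spread between these libraries, which may be technical.

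Libraries held 35650262 to 38953838 counts. The share of mitochondrial transcripts was 2.94% to 3.68% with EGF and 4.13% to 5.19% without it. Transcripts of the 3 targeted genes were counted in every library, in CPM (counts per 1e+06 of the library's effective size), (Apc at 59.8 to 198 CPM, Trp53 at 13 to 33.3 and Smad4 at 10.8 to 39.9), so gene totals do not check the editing. In EM, CTO19 held 3.03-fold less Apc and 2.88-fold less Smad4 than apsMC706, and 2.09-fold more Trp53. The intestinal transcription factor Cdx2 lay at 9.23 to 10.2 CPM in apsMC706, but at 0.861 to 2.3 in CTO19. Krt20 and Cdx1, also colon markers, were at or below 0.14 in every library. The general epithelial keratins Krt8 (524 and 535 CPM in apsMC706 EM, 913 and 990 in CTO19 EM) and Krt19 (458 and 471, 526 and 555) went the other way. Of the 12 colon epithelium markers, 10 were tested, and 2 were called higher and 7 lower in CTO19 in EM, and 2 and 8 in noEGF. Among all genes these shares were 37.5% and 33.8% in EM, and 45.7% and 34.3% in noEGF. The basal squamous keratins Krt5 and Krt14 lay at 2076 to 3847 and 2411 to 3533 in CTO19 and did not exceed 3.54 and 3.65 in apsMC706. CTO19 thus carried strong squamous marker expression beside its colon label. The summed level of the 8 squamous markers was 79.3 to 80.3 in apsMC706, 7581 to 7803 in CTO19 EM and 5954 to 6302 in CTO19 noEGF. In apsMC706 nearly all of that sum was Krt4 (68.5 to 74.8). The part of these markers in the line differences given here was not tested. Summed fibroblast markers came to 4.05 and 4.14 CPM in apsMC706 EM, 7.77 and 8.93 in apsMC706 noEGF, 1.91 and 1.83 in CTO19 EM and 11.5 and 10.9 in CTO19 noEGF. Immune markers came to 1.19 and 1.44, 7.83 and 7.74, 5.47 and 5.11, and 13.2 and 11.7 in the same order, and endothelial markers to at most 3.53. Both of the first lists were thus higher without EGF in each line, at low levels, and their part in the responses was not tested.

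D-type cyclins bind the kinases CDK4 and CDK6 in G1, and the complexes phosphorylate the retinoblastoma protein and its relatives, which releases E2F factors to switch on genes for DNA replication. Growth factor signals such as that of EGF are known to raise Ccnd1 through the MAP kinase cascade, and Wnt signalling through beta-catenin, which Apc restrains, is known to act on the same gene. INK4 proteins bind CDK4 and CDK6 and keep cyclin D away from them, while CIP/KIP proteins bind cyclin and CDK complexes and block CDK2. Cdkn1a is a classic target of p53, and Cdkn2b a classic target of TGF-beta signals carried by Smad4.

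The Cdkn2a and Cdkn2b genes lie side by side on chromosome 4, and their starts are shown because the counts of these neighbours moved in opposite directions in one line, as given further on. Cdkn2a has 2 starts. The upstream one gives the transcript of p19Arf, a protein that stabilises p53, and the inner one that of p16Ink4a. The promoter of Cdkn1b is shown with them as the start of an inhibitor outside this locus whose response was called in only one of the lines. Sequences are from the RefSeq promoter table (GRCm38.p6, the assembly of mm10), 5′ to 3′ on the gene's strand, without bases that any annotated exon covers. Capitals mark motif matches.
Cdkn2a, upstream start (chr4:89294654-89294869, minus strand): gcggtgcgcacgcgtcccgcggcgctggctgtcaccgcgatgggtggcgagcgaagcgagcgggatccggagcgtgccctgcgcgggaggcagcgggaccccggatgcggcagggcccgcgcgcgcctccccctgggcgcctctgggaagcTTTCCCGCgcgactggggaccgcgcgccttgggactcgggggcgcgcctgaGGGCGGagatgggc
Cdkn2a, inner start (chr4:89282193-89282442, minus strand): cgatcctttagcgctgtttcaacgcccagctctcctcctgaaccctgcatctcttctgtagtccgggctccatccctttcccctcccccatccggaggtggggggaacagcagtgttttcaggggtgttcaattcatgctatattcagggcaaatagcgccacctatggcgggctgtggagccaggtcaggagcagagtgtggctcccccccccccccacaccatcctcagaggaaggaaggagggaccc
Cdkn2b (chr4:89311040-89311282, minus strand): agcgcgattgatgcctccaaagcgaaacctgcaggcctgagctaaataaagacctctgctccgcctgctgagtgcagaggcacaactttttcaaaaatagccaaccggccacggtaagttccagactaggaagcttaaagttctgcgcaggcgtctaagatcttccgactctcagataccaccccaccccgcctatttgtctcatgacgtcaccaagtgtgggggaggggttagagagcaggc
Cdkn1b (chr6:134920151-134920400, plus strand): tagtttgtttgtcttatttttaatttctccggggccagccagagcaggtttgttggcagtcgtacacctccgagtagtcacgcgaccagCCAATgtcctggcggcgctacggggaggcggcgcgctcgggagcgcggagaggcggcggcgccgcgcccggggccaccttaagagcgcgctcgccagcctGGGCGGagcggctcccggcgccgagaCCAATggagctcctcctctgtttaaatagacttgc

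The table held windows for 7 of the 10 genes (11 windows), all but Ccnd1, Ccnd2 and Cdkn1c. The 250 bases before each start were searched on both strands for E2F (TTTGGCGC, TTTCCCGC, TTTGCCGC or TTTCGCGC), FOXO (GTAAACA), AP-1 (TGANTCA), TCF (CTTTGAT), the CCAAT box (CCAAT), SP1 (GGGCGG), the E-box (CACGTG) and the TATA box (TATAAA). The upstream Cdkn2a window held an E2F match, TTTCCCGC, 99 to 92 bases before the start, and no other window of these genes did. Among all 32851 windows of the same length, 1.86% held an E2F match. The Cdkn1b window held 2 CCAAT boxes and 1 SP1 match, which 33.8% and 32.7% of all windows held at least once. Neither the inner Cdkn2a window nor the Cdkn2b window held any of these motifs. One Ccnd3 window held a FOXO match (TGTTTAC on the gene's strand, 243 to 237 bases before the start), against 3.17% of all windows. AP-1, TCF, E-box and TATA matches, found in 6.75%, 3.21%, 6.02% and 12.4% of all windows, were in none of the 11. A match describes the letters and was not tested as a binding site.

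Levels are given in CPM, in the order replicate 1 and replicate 2. A response is the log2 fold change of noEGF against EM from edgeR's quasi-likelihood test, which gives an F statistic and no standard error. The standard error (SE) given here is the absolute log2 fold change divided by the square root of F. P-values were adjusted over all 16719 genes by the Benjamini-Hochberg method. A gene was called at an adjusted p under 0.05. In apsMC706, 34.1% of all tested genes were called higher and 33.1% lower, and in CTO19 34.7% and 33.3%, so a call alone was common. Of the 10 genes, 4 rose and 5 fell in apsMC706, while 5 rose and 3 fell in CTO19. Their median log2 fold change was -0.19 in apsMC706, beside 0.0009 over all genes, and 0.20 in CTO19, beside 0.015. With 10 genes these counts are close to the shares of all genes, and they say less than the size of each gene's values.

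For some genes the directions differed between the lines. Ccnd1, Cdkn1a and Cdkn2a were called in both lines with opposite signs, whereas Ccnd3, Cdkn1c, Cdkn2b and Cdkn2c were called in both with the same sign. How many of all genes had opposite or same called signs was not counted. This split therefore describes the 10 genes and is not shown to set them apart. The gap between these responses, CTO19 minus apsMC706, was tested for itself as an interaction in the same model. It was called higher for 7 of the 10 genes and lower for 2, against 30.4% and 25.6% of all genes. The median of that difference was 0.63 on the log2 scale for the 10 genes and 0.058 for all genes.

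**Figure D1:**
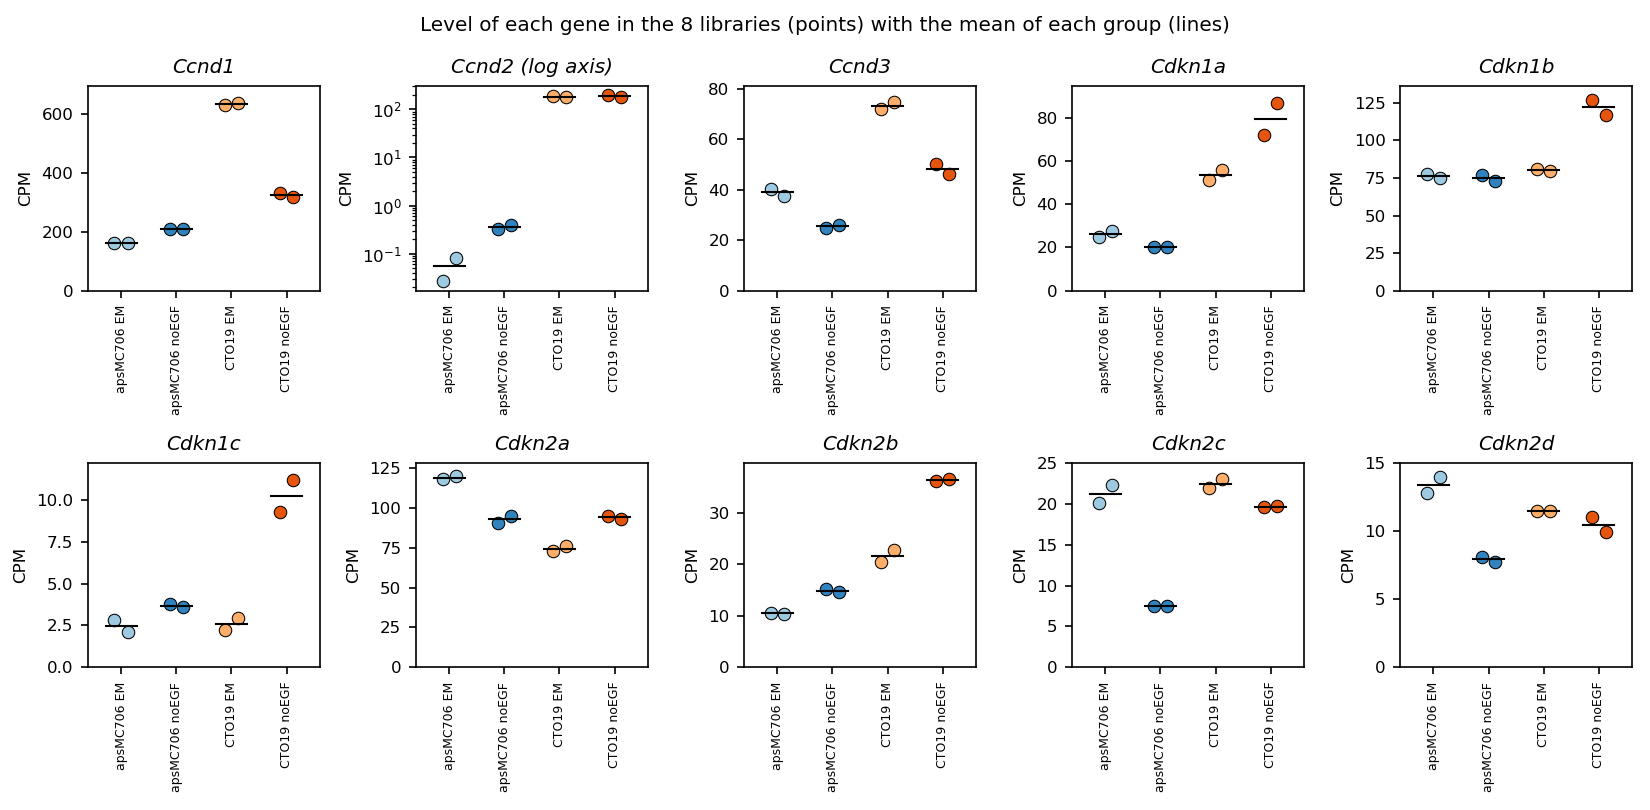
Level of each gene in CPM (vertical axis, log scale for Ccnd2 only) in the 2 libraries of each group (points) with the group mean (line), for apsMC706 (blue) and CTO19 (orange) in EM (pale) and noEGF (dark). Ccnd1 fell in CTO19 from 628 and 637 to 332 and 316 CPM and rose in apsMC706 from 160 and 161 to 210 and 210, and Cdkn2c fell most in apsMC706.

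Ccnd1 (ENSMUSG00000070348, chr7:144929931-144939925, minus strand), which encodes cyclin D1, was counted in apsMC706 at 160 and 161 CPM with EGF and at 210 and 210 without it. The CTO19 libraries held 628 and 637 with EGF and 332 and 316 without. The media did not overlap in either line, and the directions were opposite. In these bulk libraries, fewer cells of a type and less RNA per cell cannot be told apart. In apsMC706 Ccnd1 rose by 0.39 on the log2 scale (SE 0.0378, adjusted p = 3.03e-07, edgeR, 1.31-fold). In CTO19 it fell by 0.97 (SE 0.0371, adjusted p = 2.62e-11), a 1.95-fold drop. The responses differed by -1.35 (SE 0.0529, adjusted p = 7.43e-11). CTO19 held 3.94-fold more Ccnd1 than apsMC706 in EM and 1.54-fold more in noEGF, so the gap between the lines was smaller without EGF. On the opposite strand, LTO1 shares 1100 exon bases with Ccnd1, and the library kit does not mark strand. LTO1 was counted at 8.72 to 15.6 CPM.

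Ccnd2 (ENSMUSG00000000184, chr6:127125162-127152193, minus strand), the cyclin D2 gene, was nearly confined to one of the lines. CTO19 libraries held 186 and 178 CPM with EGF and 196 and 182 without, and these overlapped (log2 fold change 0.056, adjusted p = 0.304, edgeR). The apsMC706 libraries held 1 and 3 counts in EM and 12 and 15 in noEGF, or 0.0265, 0.0817, 0.327 and 0.396 CPM. The summed counts of CTO19 over apsMC706, scaled for library size, had a ratio of 3385 in EM (95% exact interval 1322 to 12427) and 521 in noEGF (358 to 791). Within apsMC706 the ratio of 27 to 4 counts was 6.75 (95% interval 2.35 to 26.5, counting error only), with a call in edgeR at an adjusted p of 0.000231. The level after that rise was still under 0.4 CPM, and the fitted difference of the responses (-2.62, SE 0.504, adjusted p = 0.00042) rests on these few counts. Without EM replicate 1 of apsMC706 the fitted apsMC706 response was 2.09 on the log2 scale, and without EM replicate 2 it was 3.61, in place of 2.68. Leaving out EM replicate 2 also moved the difference of the responses to -3.56 and the EM line difference from 11.64 to 12.6. An antisense gene, 9330179D12Rik, shares 368 exon bases with Ccnd2 and was counted at 0 to 0.116 CPM.

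Ccnd3 (ENSMUSG00000034165, chr17:47505051-47599691, plus strand), the cyclin D3 gene, behaved alike in direction and size in both lines. It fell in apsMC706 from 40.5 and 37.7 CPM to 24.9 and 26, and in CTO19 from 71.9 and 74.8 to 50.1 and 46.3. The responses were -0.62 (SE 0.0585, adjusted p = 2.21e-07) and -0.61 (SE 0.053, adjusted p = 1.19e-07) in edgeR's test. Their difference was 0.011 with an SE of 0.0787 (adjusted p = 0.933), and Ccnd3 was the one gene of the 10 whose responses were not called different. CTO19 was 1.88-fold higher in EM and 1.89-fold higher in noEGF. Bysl, on the opposite strand, shares 361 exon bases with Ccnd3 and was itself lower in noEGF in both lines, from 57.6 and 61.2 CPM to 44.2 and 45.4 in apsMC706 and from 76.2 and 77.1 to 46.5 and 43.2 in CTO19. Its part in the Ccnd3 counts was not tested.

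**Figure D2:**
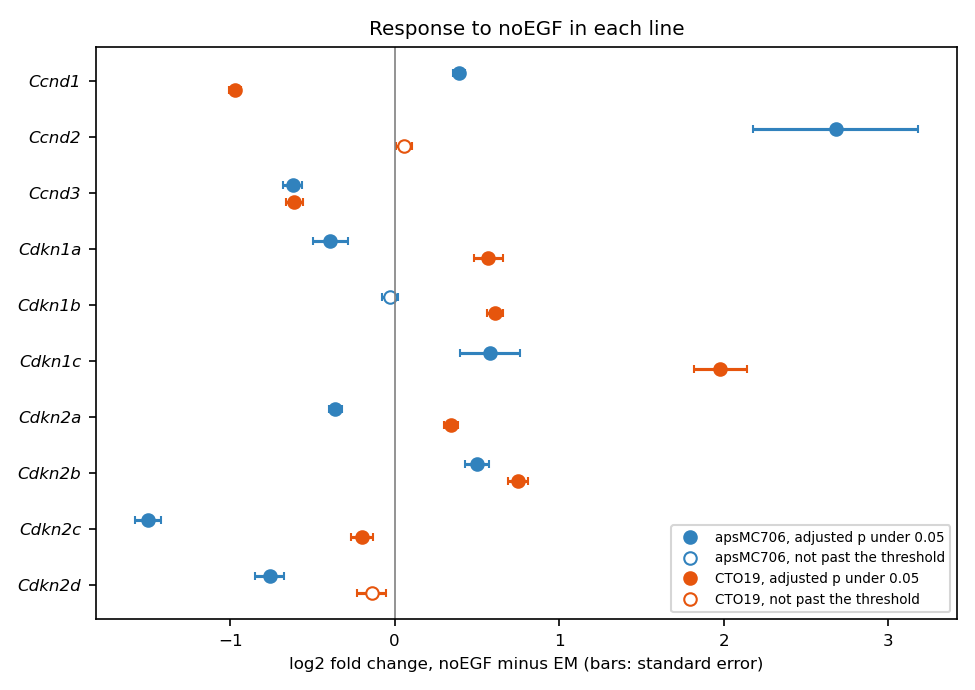
Log2 fold change of noEGF against EM (horizontal axis) for each of the 10 genes, in apsMC706 (blue) and CTO19 (orange). Bars show the standard error derived from the F statistic. Filled points were called at an adjusted p under 0.05 and open points were not. Ccnd1, Cdkn1a and Cdkn2a lie on opposite sides of 0 in the lines, Ccnd3 lies at -0.62 and -0.61, and the apsMC706 point of Ccnd2 rests on 4 and 27 counts.

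Among the CIP/KIP inhibitors, all 3 rose in CTO19, while in apsMC706 1 rose, 1 fell and 1 was not called. Of all tested genes, 34.7% were called higher in CTO19, and 34.1% higher and 33.1% lower in apsMC706. With 3 genes these counts say little about the family. Cdkn1a (ENSMUSG00000023067, chr17:29090976-29100727, plus strand) encodes p21, which stops CDK2 after DNA damage and in differentiation. With EGF it was counted at 25 and 27.8 CPM in apsMC706 and 51.4 and 55.7 in CTO19, and without EGF at 20.1 and 20.1 and at 71.9 and 86.8. The groups did not overlap in either line. Cdkn1a fell by 0.39 in apsMC706 (SE 0.104, adjusted p = 0.00819, edgeR) and rose by 0.57 in CTO19 (SE 0.0877, adjusted p = 0.000328), and the responses differed by 0.96 (SE 0.136, adjusted p = 0.000246). CTO19 was 2.03-fold higher in EM and 3.95-fold higher in noEGF. The lowest CTO19 library, at 51.4 CPM, thus lay well above the highest apsMC706 library, at 27.8, in cells labelled p53 knockout in both lines.

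Cdkn1b (ENSMUSG00000003031, chr6:134920401-134925513, plus strand) encodes p27, an inhibitor of CDK2 that is known to be controlled mainly by protein turnover. Its level was even in 3 of the 4 groups, at 77.6 and 75.3 CPM in apsMC706 EM, 77.1 and 72.8 in apsMC706 noEGF and 80.9 and 79.6 in CTO19 EM. CTO19 noEGF stood apart, at 127 and 117. The response was -0.029 in apsMC706 (SE 0.0491, adjusted p = 0.63, edgeR) and 0.61 in CTO19 (SE 0.0482, adjusted p = 4.31e-08), and these differed by 0.64 (SE 0.0687, adjusted p = 1.78e-06).

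Cdkn1c (ENSMUSG00000037664, chr7:143458339-143461050, minus strand), an imprinted gene for p57, was the lowest of the inhibitors per kilobase of exon in every group. It was counted at 2.8 and 2.1 CPM in apsMC706 EM, 3.79 and 3.57 in apsMC706 noEGF, 2.23 and 2.95 in CTO19 EM and 9.26 and 11.2 in CTO19 noEGF. The EM groups overlapped between the lines, and CTO19 noEGF lay above all other libraries. Cdkn1c rose 3.94-fold in CTO19 (log2 1.98, SE 0.159, adjusted p = 5.81e-08, edgeR). Its rise in apsMC706 was 1.5-fold (log2 0.58, SE 0.18, adjusted p = 0.0104), and the responses differed by 1.40 (SE 0.245, adjusted p = 0.000203). The apsMC706 call did not hold when EM replicate 2 was left out (0.385, adjusted p = 0.131), or when noEGF replicate 1 was (0.531, adjusted p = 0.0674). Antisense Gm44732 shares 625 exon bases with Cdkn1c, and AC167363.2 shares 273 with Cdkn1a, and neither was analysed here.

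In the same CTO19 libraries in which all 3 CIP/KIP genes rose, keratins of upper squamous layers were also higher in noEGF. Krt1 went from 21.4 and 23.1 to 713 and 879 CPM, and Krt10 from 2.55 and 3.51 to 83.2 and 113. The basal markers Krt5 (3737 and 3847 to 2376 and 2076) and Trp63 (130 and 131 to 68 and 63.1) were lower. Of the 7 squamous markers tested of 8, 4 were called higher and 2 lower in CTO19, and 1 higher in apsMC706. The shares of all genes were 34.7% higher and 33.3% lower in CTO19, and 34.1% and 33.1% in apsMC706. Sox2 was at or near 0 throughout. Some markers of other cells were also higher in CTO19 noEGF than EM: Dcn, of fibroblasts, at 10.3 and 9.49 against 0.116 and 0.0843 CPM, and the myeloid Csf1r at 7.51 and 5.42 against 0.782 and 0.534 and Itgam at 0.673 and 0.696 against 0.0289 and 0.0843. Other markers went the other way in CTO19, such as Pdgfra, of fibroblasts, from 1.39 and 1.1 to 0.753 and 0.82 CPM. Of 4 fibroblast markers tested there, 1 was called higher and 1 lower. Of 3 immune markers, 2 were called higher and 0 lower, and of 3 endothelial markers, 0 higher and 2 lower. Col1a2, Lum and Lyz2 were at or near 0 in all 8 libraries. In apsMC706, Cd68 went from 1.14 and 1.39 to 7.69 and 7.56. The part of these markers in the CIP/KIP values was not tested.

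The INK4 genes split within each line. Cdkn2a (ENSMUSG00000044303, chr4:89274471-89294653, minus strand) was counted with EGF at 118 and 120 CPM in apsMC706 and 73 and 75.8 in CTO19, and without EGF at 90.8 and 94.7 and at 95 and 93.1. The lines were apart in EM and overlapped in noEGF. Cdkn2a fell by 0.36 in apsMC706 (SE 0.0418, adjusted p = 2.36e-06, edgeR) and rose by 0.34 in CTO19 (SE 0.0427, adjusted p = 5.88e-06), with a difference of 0.69 (SE 0.0598, adjusted p = 1.72e-07). In EM, CTO19 was 1.6-fold lower (adjusted p = 1.71e-09), and in noEGF the line difference was 0.02 (adjusted p = 0.674). One count per gene sums the Arf and Ink4a transcripts, so these values do not say which start was used.

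Cdkn2b (ENSMUSG00000073802, chr4:89306299-89311039, minus strand), which encodes p15, rose in both lines, from 10.6 and 10.4 CPM to 15.2 and 14.6 in apsMC706 and from 20.4 and 22.8 to 36.2 and 36.6 in CTO19. All CTO19 libraries lay above all apsMC706 libraries. The rise was 1.42-fold in apsMC706 (log2 0.50, SE 0.0749, adjusted p = 2.67e-05, edgeR) and 1.68-fold in CTO19 (0.75, SE 0.0631, adjusted p = 7.74e-08). The next gene along the chromosome, Cdkn2a, thus fell in apsMC706 where Cdkn2b rose, and both rose in CTO19. Per kilobase of exon, the ratio of Cdkn2a to Cdkn2b was 13.2 and 13.6 in apsMC706 EM, 7.07 and 7.7 in apsMC706 noEGF, 4.24 and 3.95 in CTO19 EM and 3.11 and 3.02 in CTO19 noEGF. Mtap, the other tested gene within 500 kb, fell by 0.95 in apsMC706 and by 0.18 in CTO19. The difference of the Cdkn2b responses was called by a small margin (0.25, SE 0.0982, adjusted p = 0.0433). It was not called with DESeq2 size factors (0.2, adjusted p = 0.097), nor without any 1 of 7 of the 8 libraries, all but CTO19 EM replicate 2 (0.164 to 0.287, adjusted p = 0.0571 to 0.218).

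Cdkn2c (ENSMUSG00000028551, chr4:109660876-109667189, minus strand), the gene for p18, had the largest fall of the 10 in apsMC706. Its level there was 20.1 and 22.3 CPM with EGF and 7.5 and 7.48 without, beside 21.9 and 23.1 and then 19.6 and 19.7 in CTO19. The lines overlapped in EM and lay apart in noEGF. The fall was 2.83-fold in apsMC706 (log2 -1.50, SE 0.0773, adjusted p = 2.6e-10, edgeR) and 1.14-fold in CTO19 (-0.20, SE 0.0679, adjusted p = 0.0198). The CTO19 call was lost without EM replicate 2 (-0.155, adjusted p = 0.115), noEGF replicate 1 (-0.183, adjusted p = 0.0582) or noEGF replicate 2 (-0.189, adjusted p = 0.0558), and with DESeq2's Wald test (adjusted p = 0.126). The responses differed by 1.31 (SE 0.103, adjusted p = 7.24e-08).

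Cdkn2d (ENSMUSG00000096472, chr9:21288410-21291407, minus strand), the gene for p19Ink4d, went from 12.8 and 14 CPM to 8.1 and 7.74 in apsMC706 and stood at 11.5 and 11.5 and then 11 and 9.89 in CTO19. It fell in apsMC706 (log2 -0.76, SE 0.0876, adjusted p = 1.93e-06, edgeR). In CTO19 the change of -0.14 (SE 0.0862) was not called (adjusted p = 0.152). The responses differed by 0.62 (SE 0.123, adjusted p = 0.000588). Transcripts of Cdkn2c and Cdkn2d are known to vary over the cell cycle.

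Levels of different genes can be compared only per length, and for this CPM was divided by the kilobases of annotated exon. Exon bases were merged over all annotated transcripts of a gene, such as 1172 for Cdkn2a, 8775 for Ccnd3 and 9409 for Ccnd2. A gene read from shorter transcripts is given too low a level in this way. Ranks, shares and ratios between genes thus depend on the lengths used. Cdkn2a was the highest of the 10 genes in apsMC706 EM (101 CPM per kb), apsMC706 noEGF (79.1) and CTO19 noEGF (80.2), and Ccnd1 was second (34.1, 44.6 and 68.8). Cdkn1b came next in these 3 groups, at 16.8, 16.5 and 26.8. In CTO19 EM the order was turned, with Ccnd1 at 134 and Cdkn2a at 63.5, and Ccnd2 at 19.3 lay between Cdkn2a and Cdkn1b at 17.6. In apsMC706 EM the next genes, Cdkn2d, Cdkn2c, Cdkn2b and Cdkn1a, ranged from 8.52 to 7.43, and each overlapped its neighbour in that order. Without EGF, these 4 lay apart in apsMC706, at 10.7 for Cdkn2b, 5.66 for Cdkn1a, 5.03 for Cdkn2d and 2.79 for Cdkn2c, with Ccnd3 at 2.9 above the last. Overlapping neighbours in CTO19 were Cdkn2b with Cdkn1a and Cdkn2c with Ccnd3 in EM, and Cdkn1b with Cdkn2b, Cdkn1a with Ccnd2 and Ccnd3 with Cdkn1c in noEGF. At the bottom were Ccnd2 in apsMC706 (0.00575 and 0.0384) and Cdkn1c in CTO19 (1.27 and 5.01).

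**Figure D3:**
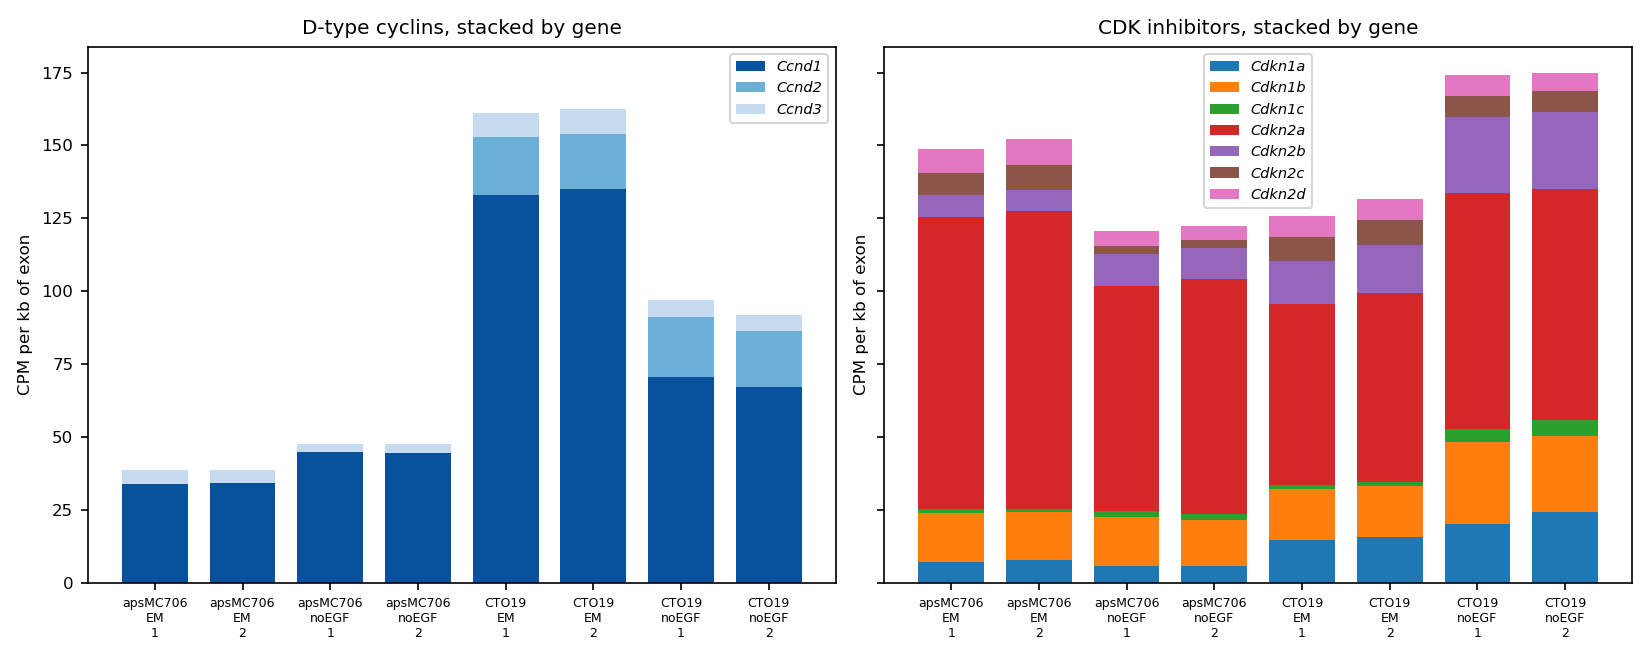
Summed level of the D-type cyclins (left) and of the CDK inhibitors (right) in CPM per kb of exon (vertical axis, from 0) in each of the 8 libraries (bars), with each gene's part in colour. The Cdkn2a part joins the Arf and Ink4a transcripts. The cyclin bars are highest in CTO19 EM (161 and 163), and the inhibitor bars are highest in CTO19 noEGF (174 and 175) and lowest in apsMC706 noEGF (121 and 122).

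Summed per kilobase, the D-type cyclins came to 38.5 and 38.6 CPM per kb in apsMC706 EM, 47.6 and 47.5 in apsMC706 noEGF, 161 and 163 in CTO19 EM and 97 and 91.7 in CTO19 noEGF. The 7 inhibitors came to 149 and 152, 121 and 122, 126 and 132, and 174 and 175 in the same order. The sums therefore moved in opposite directions within each line: without EGF there was more cyclin and less inhibitor transcript in apsMC706, and less cyclin and more inhibitor transcript in CTO19. The ratio of cyclins to inhibitors went from 0.259 and 0.253 to 0.394 and 0.388 in apsMC706 and from 1.28 and 1.24 to 0.557 and 0.524 in CTO19. Values of the lines came closer together without EGF but did not overlap. These sums were dominated by Ccnd1, with 72.7% to 94% of the cyclins, and Cdkn2a, with 45.4% to 67.3% of the inhibitors. The sums carry no test and depend on the exon lengths used. The Cdkn2a count also joins the Arf and Ink4a transcripts, and p19Arf is the protein described above as stabilising p53. How much of the inhibitor sums, and of the ratios, comes from the Arf transcript is thus not known. In CTO19, Ccnd2 made up 12.2% and 11.6% of the cyclin transcripts in EM and 21.4% and 21.1% in noEGF. In apsMC706, Ccnd3 went from 12% and 11.2% to 5.97% and 6.25%.

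The lines differed in most of these genes. In EM, 5 of the 10 genes were called higher in CTO19 and 2 lower, against 37.5% and 33.8% of all genes, with a median line difference of 0.50 on the log2 scale beside 0.025 for all genes. In noEGF, 9 were higher and none lower, against 45.7% and 34.3%, with medians of 1.10 and 0.13. Cdkn2a was the gene not called in noEGF (adjusted p = 0.674, unadjusted p = 0.646, edgeR), and no gene reached an unadjusted p under 0.05 in the lower direction. Cdkn1b, Cdkn1c and Cdkn2c were not called in EM (log2 differences 0.07, 0.079 and 0.084, adjusted p = 0.215, 0.73 and 0.278), and in noEGF CTO19 was 1.63-fold, 2.78-fold and 2.62-fold higher in them. Cdkn2d was lower in CTO19 in EM (-0.22, SE 0.0842, adjusted p = 0.029) and higher in noEGF (0.39, SE 0.0898, adjusted p = 0.000945). Its EM call did not hold after leaving out apsMC706 EM replicate 2 (-0.157, adjusted p = 0.214), CTO19 EM replicate 1 (-0.223, adjusted p = 0.0745) or CTO19 EM replicate 2 (-0.223, adjusted p = 0.0756). Its noEGF call did not hold after leaving out CTO19 noEGF replicate 1 (0.234, adjusted p = 0.0516).

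Over both lines together, the model of line and medium called 2 of the 10 genes higher in noEGF and 3 lower, against 25.5% and 23.3% of all genes. The medians were 0.04 and 0.033. Cdkn1c (log2 1.30, SE 0.305, adjusted p = 0.0109) and Cdkn2b (0.63, SE 0.0777, adjusted p = 0.000703) rose. Ccnd3 (-0.61, SE 0.0559, adjusted p = 0.000231), Cdkn2c (-0.84, SE 0.256, adjusted p = 0.03) and Cdkn2d (-0.45, SE 0.137, adjusted p = 0.0297) fell. Of these 5 genes, all but Ccnd3 had responses called different between the lines, so their shared values stand for unlike responses. In apsMC706 and CTO19 these were -1.50 and -0.20 for Cdkn2c. For Cdkn2d they were -0.76 and -0.14, the last not called. The 3 genes with opposite responses gave values near 0 with wide errors, -0.29 for Ccnd1 (SE 0.262), 0.095 for Cdkn1a (SE 0.196) and -0.0099 for Cdkn2a (SE 0.137). The calls of Cdkn2c and Cdkn2d were lost without any 1 of the 4 apsMC706 libraries, which left 3 calls (Cdkn2c adjusted p = 0.0614 to 0.0917, Cdkn2d 0.0713 to 0.0878). That of Cdkn2d also needed CTO19 noEGF replicate 2, without which it was not made (-0.422, adjusted p = 0.058). With no term for line, none of the 5 was called (adjusted p = 0.0742 for Cdkn1c to 0.375 for Cdkn2b).

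The genes that act with and after the cyclins and inhibitors were counted by list. Beside all these list counts stand the shares of all tested genes. They were 34.1% higher and 33.1% lower in apsMC706, and 34.7% and 33.3% in CTO19. Of 20 E2F target genes of replication, all 20 were called lower in apsMC706 and all 20 in CTO19, with medians of -1.57 and -0.58. The difference of the responses was called for all 20, each falling less in CTO19 (median 0.99), against 30.4% of all genes called higher. In apsMC706 the largest calls by p were Mcm5 and Mcm4, parts of the replicative helicase (-2.14 and -1.69), and Rrm1, a subunit of ribonucleotide reductase (-1.97). In CTO19 they were Rrm2, the partner subunit (-1.30), Tk1, thymidine kinase (-0.82), and Mcm4 (-0.71). These targets were therefore lower without EGF in both lines, in apsMC706 beside a higher Ccnd1 and in CTO19 beside a lower one.

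Of 12 kinases, cyclins E and A and CDK activators, 1 rose and 7 fell in apsMC706, and 2 rose and 8 fell in CTO19 (medians -0.73 and -0.35). Ccna2, cyclin A2, fell by 1.55 and 0.93, Ccne2, cyclin E2, by 1.81 and 0.84, and Cdk1 by 1.15 and 0.76. Cdk4, the partner of the D cyclins, fell in apsMC706 (-0.57, adjusted p = 1.56e-08, edgeR) and rose in CTO19 (0.24, adjusted p = 0.000139), while Cdk6 was not called in apsMC706 (-0.06, adjusted p = 0.416) and fell in CTO19 (-0.52). Cdk4 and Cdk6 are given outside the naming rule, as the binding partners. Of 13 pocket proteins and E2F factors, 1 rose and 11 fell in apsMC706, and 2 rose and 9 fell in CTO19 (medians -0.71 and -0.33). The repressor E2f8 fell by 2.02 and 1.32, and E2f2 by 2.45 and 0.56. Rb1 rose in CTO19 (0.45), as did Tfdp2, a partner of E2F factors (0.40).

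**Figure D4:**
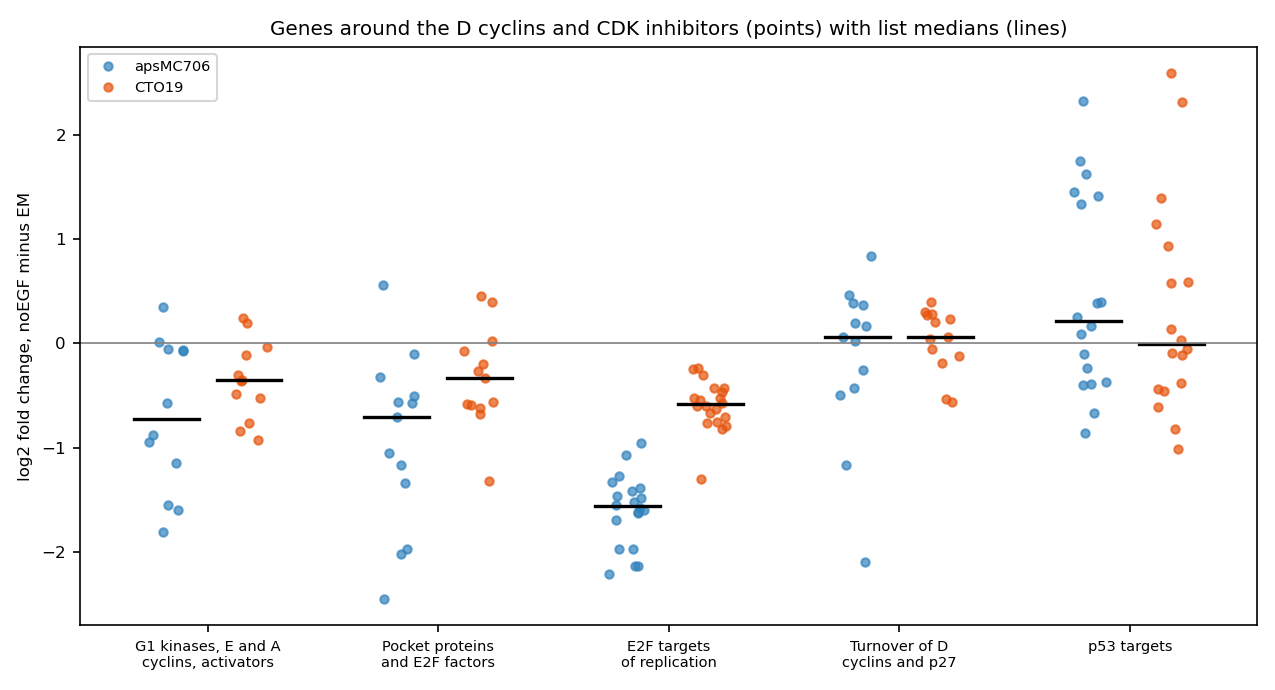
Log2 fold change of noEGF against EM (vertical axis) of each gene (points) in 5 lists around the D cyclins and CDK inhibitors, in apsMC706 (blue) and CTO19 (orange), with list medians (lines). The E2F targets lie below 0 in both lines, with medians of -1.57 and -0.58, while the turnover and p53 lists spread around 0.

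Of 13 genes for the turnover of D cyclins and p27, 6 rose and 5 fell in apsMC706, and 6 rose and 4 fell in CTO19. Medians were 0.06 in both lines. Shares of all genes were 34.1% and 33.1% in apsMC706 and 34.7% and 33.3% in CTO19. Skp2 and Cks1b, which together mark p27 for degradation, fell by 2.10 and 1.17 in apsMC706 and by 0.53 and 0.56 in CTO19. Rnf123, a subunit of another ubiquitin ligase for p27, rose by 0.84 and 0.27. Gsk3b, the kinase that marks cyclin D1 for export and degradation, rose by 0.37 and 0.23. Ambra1, an adaptor in the degradation of D cyclins, rose in CTO19 (0.40). RNA counts give no protein level for these genes.

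Of 18 p53 target genes besides Cdkn1a, 8 rose and 6 fell in apsMC706, and 7 rose and 7 fell in CTO19, with medians of 0.21 and -0.01. Among all genes, 34.1% rose and 33.1% fell in apsMC706, and 34.7% and 33.3% in CTO19. The members that moved did so in different directions. Trp53inp1 rose by 1.45 and 2.59, and Bbc3, a gene for the cell death protein PUMA, by 1.62 and 1.39. Plk2 rose in apsMC706 (1.75) and fell in CTO19 (-0.46), while Perp, also known in squamous epithelium, fell in apsMC706 (-0.37) and rose in CTO19 (0.59), as Cdkn1a did. Btg2 rose by 0.25 in apsMC706 and by 2.31 in CTO19. Bax (-0.86 and -0.38) and Ccng1 (-0.67 and -0.82) fell in both lines. Trp53 itself was not called in apsMC706 (0.05, adjusted p = 0.743) or in CTO19 (-0.05, adjusted p = 0.641).

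Polycomb genes, whose products are known to silence the Cdkn2a locus, and the opposing H3K27 demethylases made a list of 14, of which 6 rose and 5 fell in apsMC706 and 10 rose and 4 fell in CTO19 (medians 0.12 and 0.40). All genes stood at 34.1% higher and 33.1% lower in apsMC706 and at 34.7% and 33.3% in CTO19. The core genes Ezh2, Eed and Suz12 fell by 1.18, 0.90 and 0.70 in apsMC706. In CTO19, Suz12 (-0.40), Eed (-0.30), Ezh2 (-0.13) and Bmi1 (-0.15) fell, and Kdm6a, a demethylase, rose (1.01). Bmi1 also fell (-0.79) and Kdm6a also rose (0.28) in apsMC706. Ezh1 rose in both lines (0.89 and 0.62). Of 9 genes of quiescence and the DREAM repressor complex, 1 rose and 6 fell in apsMC706, and 3 rose and 4 fell in CTO19 (medians -0.73 and -0.20). Dyrk1b, a kinase of quiescent cells that is known to phosphorylate cyclin D1 and p27, rose by 0.78 and 2.07. The proliferation factor Mybl2 fell by 2.03 and 1.20, and Foxm1 by 1.43 and 0.74.

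The genes most like each of the 10 in pattern were found by Pearson's r of log2 CPM over the 8 libraries, among the 9218 genes whose log2 CPM averaged 3 or more. The 8 libraries fall into 4 groups of 2, so that r mostly follows the 4 group levels, and it is a description. For Ccnd1 they were B4galt1 (r = 0.9983) and Pxn (0.9977), and 143 genes had an r over 0.95. For Ccnd2 they were Tgm1 (0.9991) and Smo (0.9989), with 515 such genes, the most of the 10. Ccnd3 was closest to Atp1b3 (0.9986) and Fth1 (0.9971). Among the CIP/KIP genes, Cdkn1a was close to Golga7b (0.9973) and Nfya (0.9963), Cdkn1b to Acvr2a (0.9922), and Cdkn1c to Atp13a2 (0.9939) and Bace2 (0.992). Of the INK4 genes, Cdkn2b was close to Ehmt2 (0.9993) and Cttn (0.9981), and Cdkn2c to Tubgcp2 (0.9978). Cdkn2d was closest to Bag2 (0.9896) and Smc1a (0.9885). Cdkn2a had the fewest, 48 genes over 0.95, led by Inppl1 (0.992) and Anp32a (0.991). Patterns like that of Cdkn2a were thus the rarest among the 10, and those like that of Ccnd2 the most common.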

How the data were processed

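Per the labels, poly(A) RNA of 8 libraries (2 lines, 2 media, 2 replicas) was made into libraries with a kit that does not mark strand. Reads were aligned with STAR 2.7.0a to mm10, per the submitters' processing notes. How reads were counted (program, strand, annotation, filters) is not given in the sources used here. Counts as deposited by the authors are raw whole numbers for Ensembl genes. Of 32728 genes, 32680 were found in GENCODE M21, which gave names, positions and exon lengths, and 48 were not.

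Counts were tested in R 4.3.3 with edgeR 4.0.16 (filterByExpr, TMM factors, quasi-likelihood F-test with robust moderation, two-sided). The filter kept 16719 genes with 99.971% of counts. A model of the 4 group means (biological coefficient of variation 4.27%, 4 residual degrees of freedom) gave the responses, their difference and the line differences. A model of line and medium (5 degrees of freedom, 16.9%) gave the response over both lines. CPM used TMM-scaled library sizes. A count of 0 allows up to 3 counts, which is 0.0745 to 0.0868 CPM, and this floor and the intervals cover counting error only, since reads without molecular identifiers are not independent molecules.

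The 10 genes and all gene lists were chosen with earlier results of these data known. All 10 were named in every comparison. Of the other lists, up to 3 genes per direction with the smallest p in each line could be named, and likeness named the 2 genes of highest r per gene. A few genes that these rules cover are not reported here. Alternatives were the size factors and the Wald test of DESeq2 1.42.0, upper-quartile factors, limma-voom (limma 3.58.1), no filter, a replicate block, no line term, only the 4 samples of a comparison, and each library left out. Both models were run on counts simulated at the spread of the 4-group model, with known changes planted in some genes. For the model of line and medium these changes were equal in both lines. That check therefore does not cover its use here, where responses differed between the lines.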

Additional observations from a re-analysis of the deposited data

Results flagged for a closer look

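For 9 of the 10 genes the response to noEGF differed between the lines by the test of the difference itself (edgeR, log2 scale, CTO19 minus apsMC706). The same test called 9366 of all 16719 genes (30.4% higher and 25.6% lower), so such a call was common. The difference was negative for Ccnd1 (-1.35, adjusted p = 7.43e-11), which rose in both apsMC706 noEGF libraries relative to EM and fell in both of CTO19. It was also negative for Ccnd2 (-2.62, adjusted p = 0.00042), a value that rests on the 4 and 27 counts of apsMC706. Both genes with opposite called signs among the inhibitors had positive differences, 0.96 for Cdkn1a (adjusted p = 0.000246) and 0.69 for Cdkn2a (adjusted p = 1.72e-07). Cdkn1c (1.40, adjusted p = 0.000203) rose more in CTO19. Cdkn2c (1.31, adjusted p = 7.24e-08) fell less there. For Cdkn1b (0.64, adjusted p = 1.78e-06) the CTO19 response alone was called, and for Cdkn2d (0.62, adjusted p = 0.000588) the apsMC706 response alone. Cdkn2b had the smallest difference (0.25, adjusted p = 0.0433), and its call was lost in most alternatives. Groups of 2 libraries are too small to look for outlying libraries.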

How the results depend on the processing

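Over both lines, 5 of the 10 genes were called. With the replicate block (the replicate number as a term) there were 3, since Cdkn2c (adjusted p = 0.0535) and Cdkn2d (adjusted p = 0.055) were lost. The labels give the numbers no shared source. Differences between replicates correlated across genes at -0.00825 to 0.0485 over the 6 pairs of groups, and at 0.0199 to 0.175 for the 10119 genes with a log2 CPM of 3 or more, so the numbers were not taken as pairs, and the block lost no other call among the 10 genes. With no line term, 0 of the 10 genes and 1806 of all genes (743 higher, 1063 lower) were called, in place of 8157. Leaving out each library gave 3 to 5 of the 10 genes. All other counts of calls stayed within 1.5 times. Values that changed sign were near 0 and not called. With upper-quartile factors, DESeq2 size factors, the DESeq2 Wald test and no filter in turn, Cdkn1b in apsMC706 was 0.0494, 0.0292, 0.0292 and 0.0378, the Ccnd3 difference of responses -0.0628, -0.0382, -0.038 and -0.0744, the Cdkn2a line difference in noEGF -0.0764, -0.0421, -0.0421 and -0.0685, and Cdkn2a over both lines 0.0312, 0.0232, 0.0233 and 0.014. With only the 4 samples, the Cdkn2a line difference in noEGF was -0.0665. Leaving out each library, these 4 values spanned -0.0789 to 0.0589, -0.124 to 0.0643, -0.0824 to 0.0554 and -0.101 to 0.0763. Cdkn1a over both lines spanned -0.0428 to 0.208, and Cdkn1c between the lines in EM -0.143 to 0.299. The Cdkn2b difference of responses was not called with upper-quartile factors (adjusted p = 0.156), no filter (0.248) or the Wald test (0.277), nor Cdkn2d between the lines in EM with the Wald test (0.112). Cdkn1b over both lines was called with upper-quartile factors (0.331, adjusted p = 0.0489) and the Wald test (0.323, adjusted p = 0.04). The cause was not tested. Without the filter, the median of all genes moved by -0.118 for the difference of responses and by -0.129 for the line difference in noEGF. With 2 libraries a group, depth limits Ccnd2 in apsMC706, where 1 to 15 counts stand behind each value.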

Other observations

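Genes within 500 kb of the 10 were counted as a description. Around Cdkn1a, 17 neighbours were tested, and all 17 were called higher in CTO19 than in apsMC706 in noEGF, as Cdkn1a was, with a median of 1.08, where 45.7% of all genes were. This locus was singled out after its values were seen. Some of the 17 had very large line differences in noEGF, such as Pnpla1 (10.04), Rab44 (5.22) and Cpne5 (4.41). A gene nearly confined to CTO19 can pass the filter on low counts through CTO19 alone, which fixes its direction beforehand. How many of the 17 did so was not counted. In EM, 12 of the 17 were higher and none lower, against 37.5% and 33.8% of all genes. Their response to noEGF was called higher for 12 and lower for 2 in CTO19 (median 0.71), against 34.7% and 33.3% of all genes. In apsMC706 it was called higher for 5 and lower for 7, against 34.1% and 33.1%. These neighbours include Pim1, Mapk13, Mapk14 and Stk38. Around Ccnd2, 6 neighbours were tested, and their line differences in EM lay between -0.32 and 0.59 on the log2 scale, while Ccnd2 itself was near 0 in apsMC706. Around Ccnd1, 10 neighbours were tested, and 5 were called higher and 2 lower in CTO19 in EM, against 37.5% and 33.8% of all genes. Their median was 0.26, with values from -2.29 to 7.34, beside 1.98 for Ccnd1.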
